A study of Mus musculus with 4 samples.

Results

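The 9 genes described here encode subunits of the transcription factor AP-1 and early response factors expressed with them: Fos, Fosb, Fosl2, Jun, Junb, Jund, Atf3, Egr1 and Ier2. They were matched by gene symbol, as 9 of the 32285 genes counted in single-cell RNA sequencing of mouse spleen. The genes were chosen by their higher counts in whole D3TA spleen than in WT spleen in these same libraries, so that contrast describes them and tests nothing. The question tested was whether the difference was shared by all cell types of the spleen. D3TA mice were C57BL/6J females with a constitutive, heterozygous Thr283Ala substitution in cyclin D3 (Ccnd3), made with CRISPR/Cas9 and present in every tissue. WT mice were females of the same strain, matched for age and sex. Each group held 2 mice, 1 library per mouse, and the ages given for the pair of D3TA mice were 12 and 16 months, when the study describes a severe myeloproliferative neoplasm in this model. Spleens of both groups were cut with a scalpel, passed through needles and treated with red cell lysis buffer before droplet capture. A p-value of D3TA against WT here rests on the spread between 2 mice per group. In the test of whether the difference was shared, a shift common to all classes of a library is taken out. That p-value rests on how the classes vary beyond it between the 2 mice of a group, and the classes of a mouse are not further mice.

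AP-1 is a dimer of proteins with a basic leucine zipper, formed by a Jun protein alone or by a Jun and a Fos protein, and ATF3 can take part in such dimers. Fos, Fosb, Jun, Junb, Atf3, Egr1 and Ier2 are immediate early genes: their transcription starts within minutes of growth factors, cytokines or stress, through MAP kinases and factors already present, without new protein synthesis. In blood cells they respond to antigen and inflammatory receptors, and they are also known to respond to the handling of tissue during dissociation. Fosl2 and Jund are usually expressed more steadily.

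The Fos, Fosb and Jun genes carried the clearest differences below, so the 250 bases upstream of their start sites are shown, 5′ to 3′ on the strand of the gene (RefSeq, GRCm38.p6). They lie at chr12:85473640-85473889 (plus strand), chr7:19310046-19310295 (minus strand) and chr4:95052223-95052472 (minus strand). Capitals mark TGACG, the core of a cyclic AMP response element, in Fos and Fosb, the AP-1-like element TGACATCA in Jun, and the TATA motif TATAAA in Fos.
Fos: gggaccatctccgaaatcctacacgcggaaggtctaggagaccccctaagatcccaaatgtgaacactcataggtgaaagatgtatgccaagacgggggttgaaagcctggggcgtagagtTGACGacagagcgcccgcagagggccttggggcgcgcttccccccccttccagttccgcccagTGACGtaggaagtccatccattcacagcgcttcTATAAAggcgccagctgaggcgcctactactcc
Fosb: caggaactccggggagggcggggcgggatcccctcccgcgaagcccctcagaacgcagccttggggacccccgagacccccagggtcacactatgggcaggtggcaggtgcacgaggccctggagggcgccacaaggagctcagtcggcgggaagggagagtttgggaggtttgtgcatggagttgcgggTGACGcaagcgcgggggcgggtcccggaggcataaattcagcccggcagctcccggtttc
Jun: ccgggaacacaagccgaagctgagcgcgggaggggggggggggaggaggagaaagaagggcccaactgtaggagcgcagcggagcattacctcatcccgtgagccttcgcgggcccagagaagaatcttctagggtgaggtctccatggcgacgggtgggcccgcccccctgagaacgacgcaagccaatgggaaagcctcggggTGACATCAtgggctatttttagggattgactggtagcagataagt

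Of the 9 genes, 7 matched an entry with such a sequence, and Egr1 and Ier2 are named only. On either strand, TGACG was found in 4 of the 7 (Atf3, Fos, Fosb and Junb) and in 17.8% of 32851 mouse upstream sequences of the same length. The longer TGACGT, which contains TGACG, was found in Atf3 and Fos and in 6.47% of all sequences. TGACATCA was found in Jun alone among the 7 and in 2.93% of all, and TATAAA in Fos alone among the 7 and in 12.4% of all. The full element TGACGTCA, present in 1.55% of all, and the AP-1 site TGANTCA, present in 6.75% of all, were in none of the 7 windows. These matches describe letters in a window, and no binding was measured.

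The 4 libraries held 81416981 to 143811696 unique molecular identifiers (UMIs, each counting 1 captured RNA molecule), and 52330 of 64410 barcodes passed the cell filters. WT replicate 1 stood apart: its cells had a median of 1393 UMIs, against 7559 to 7919 in the other 3 libraries, and 37.9% of its cells could not be assigned to a class, against 10.8% to 11.8% in the other 3. Cell barcodes shared between 2 libraries numbered 32 to 127, at most 0.839% of the smaller library. Cells were assigned one by one to 15 classes from 182 marker genes, none of them among the 9. The 10 classes with at least 20 cells in every library were compared and are written with the suffix -like. The markers of the NK-like class summed to 0.598 times its T cell markers in D3TA replicate 1, so T cells cannot be kept apart from it. In the conventional dendritic-like and plasmacytoid dendritic-like classes the lowest such ratio to another class's markers was 1.84 and 1.35, while it was above 2 in the other 7. The count per gene does not show an amino acid substitution, so it does not check the genotype labels.

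In whole spleen the Fos family was several-fold higher in D3TA. Fos, the founding member, stood at 135 and 120.1 CPM (UMIs of the gene scaled to the same total in every library) in D3TA libraries, against 22.6 and 20.2 CPM in WT libraries (mean 127.5 ± 10.4 and 21.4 ± 1.67 CPM, SD, n = 2 each, log2 fold change 2.67 ± 0.19 SE). Fosb, a close relative of Fos, stood at 26.6 and 28.0 CPM in D3TA libraries, against 2.88 and 4.35 CPM in WT libraries (log2 fold change 3.00 ± 0.26 SE). Fosl2, which encodes Fra-2, stood at 23.4 and 19.4 CPM in D3TA libraries, against 5.54 and 3.82 CPM in WT libraries (log2 fold change 2.28 ± 0.27 SE). For each of the Fos family genes both D3TA libraries lay above both WT libraries.

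The Jun family was graded. Jun, the subunit that can pair with itself, stood at 154 and 100.2 CPM in D3TA libraries, against 17.6 and 30.9 CPM in WT libraries (log2 fold change 2.49 ± 0.39 SE). Junb stood at 187 and 122 CPM in D3TA libraries, against 76.7 and 71.0 CPM in WT libraries (log2 fold change 1.16 ± 0.28 SE). Jund stood at 279 and 201 CPM in D3TA libraries, against 216 and 211 CPM in WT libraries (log2 fold change 0.27 ± 0.26 SE). The groups did not overlap for Jun and Junb and did overlap for Jund, whose D3TA replicate 2 library was the lowest of the 4.

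Atf3, a stress-induced bZIP repressor, stood at 10.4 and 4.6 CPM in D3TA libraries, against 2.42 and 2.23 CPM in WT libraries (log2 fold change 1.80 ± 0.48 SE). Egr1, a zinc finger factor, stood at 42.6 and 52.9 CPM in D3TA libraries, against 13.9 and 15.0 CPM in WT libraries (log2 fold change 1.80 ± 0.16 SE). Ier2, a small nuclear protein, stood at 102 and 78.2 CPM in D3TA libraries, against 38.8 and 31.3 CPM in WT libraries (log2 fold change 1.46 ± 0.24 SE). Both D3TA libraries lay above both WT libraries for all 3 genes, and the D3TA libraries differed most from each other in Atf3.

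All 9 genes passed the filter on low counts in whole spleen. In edgeR's fit of all genes, 6 of the 9 (Fos, Fosb, Fosl2, Jun, Egr1 and Ier2) were called higher in D3TA, beside 5.7% of the 18344 genes tested, and in 8 of 9 both D3TA libraries lay above both WT libraries after scaling, beside 29% of all genes. The genes were selected on this contrast, so nothing is read from those counts. Between the genes just inside and just outside the call, Ier2 had a log2 fold change of 1.46 and Junb of 1.16. With each library left out in turn, Fos ranged from 2.51 to 2.81 and Fosb from 2.71 to 3.33. Without WT replicate 1, the library of low depth, Jun, Egr1 and Ier2 stood at 2.12, 1.73 and 1.60. Without WT replicate 2, Fosl2 stood at 2.04, Jun at 2.95, Egr1 at 1.85 and Ier2 at 1.31. Without D3TA replicate 1, Jun stood at 2.06, Junb at 0.74 and Jund at -0.07. Without D3TA replicate 2, Junb stood at 1.49, Jund at 0.54 and Atf3 at 2.31. The calls of Fosl2, Jun, Egr1 and Ier2 were not kept in every such fit. The number of all genes called also moved widely with the library left out, so calls in these fits are not read gene by gene.

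**Figure D1:**
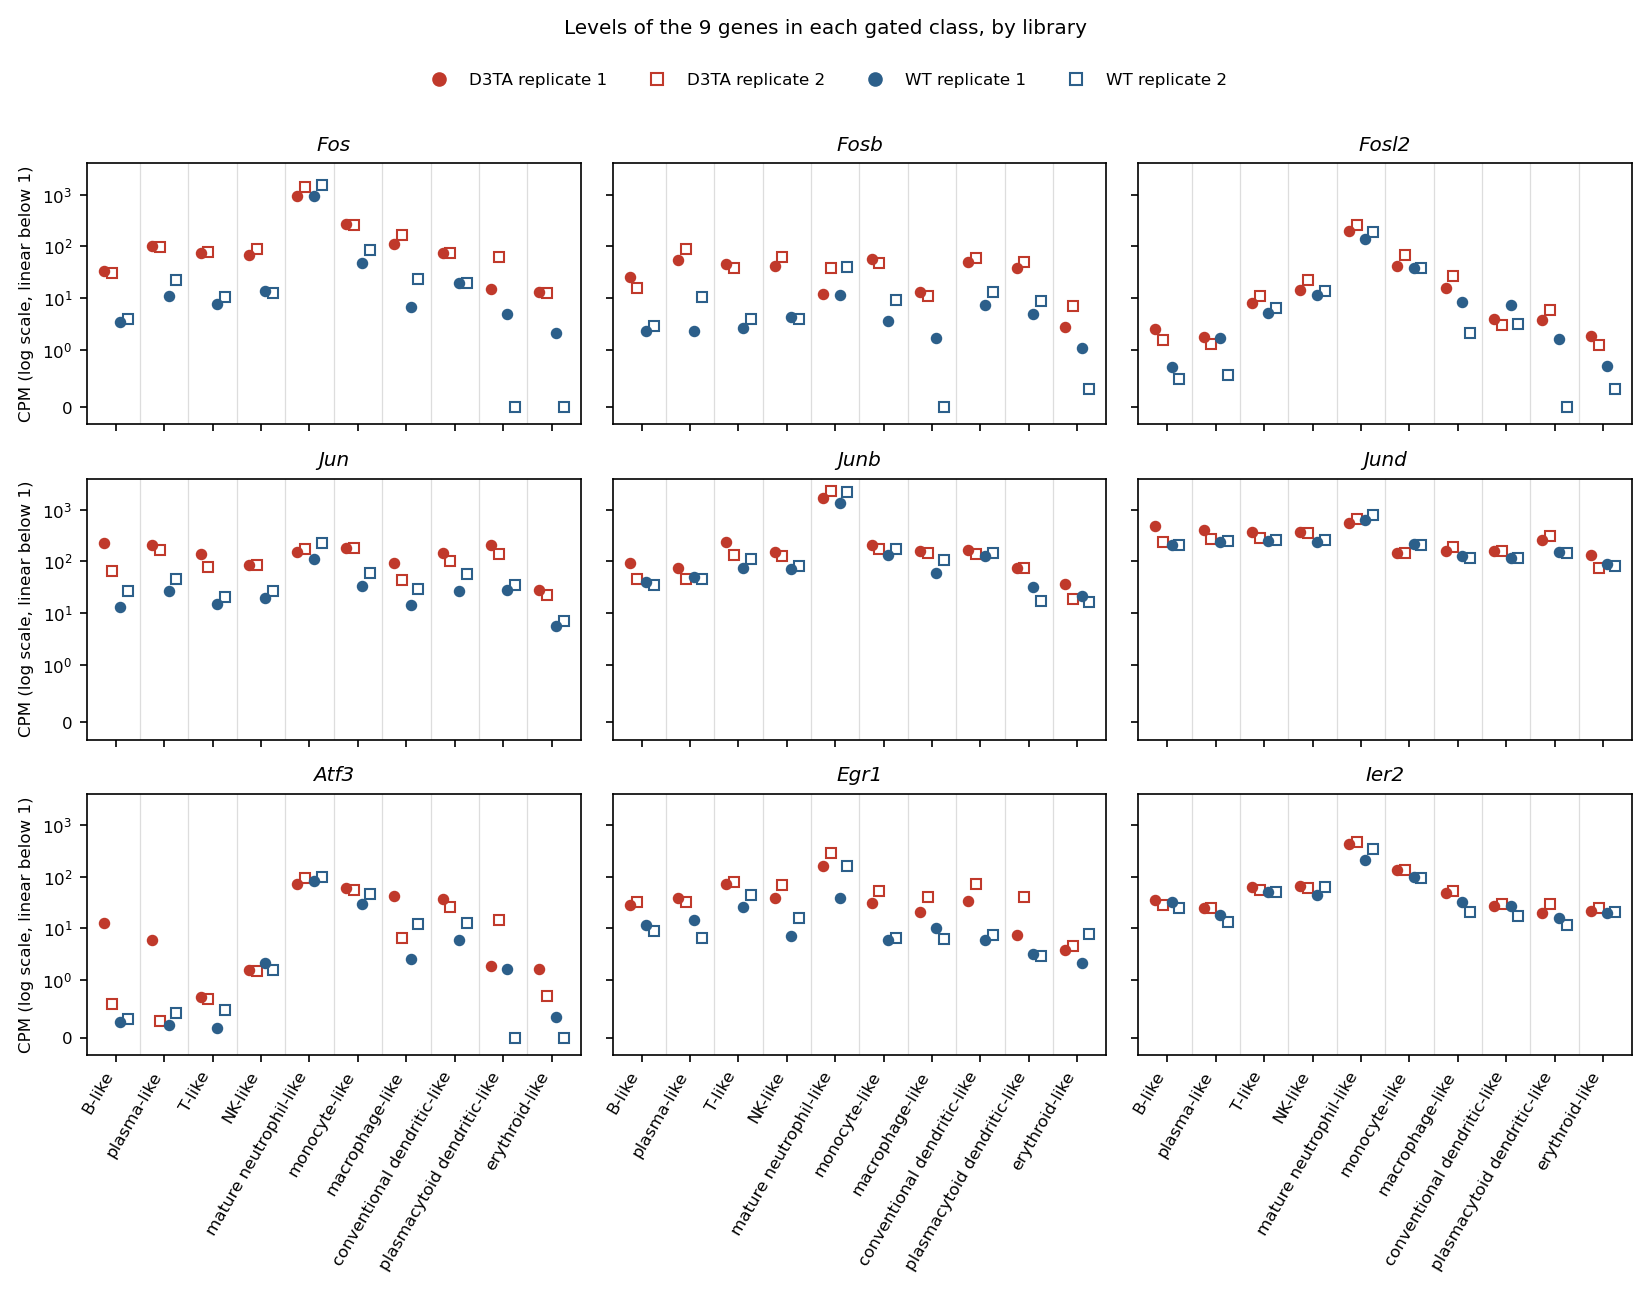
CPM (vertical axis, log scale, linear below 1) of each gene in 10 gated classes (horizontal axis), 1 point per library, D3TA to the left of WT in each class. In mature neutrophil-like cells Fos lies between 930 and 1517 CPM in all 4 libraries, while in T-like cells the D3TA points at 74.9 and 76.2 CPM lie above the WT points at 7.56 and 10.4 CPM.

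Within classes, Fos separated the genotypes in every compared class but mature neutrophil-like cells. In conventional dendritic-like cells, for instance, it stood at 72.9 and 75.5 CPM in D3TA libraries, against 19.0 and 19.2 CPM in WT libraries. In B-like cells, Fos stood at 33.1 and 29.96 CPM in D3TA libraries, against 3.47 and 3.90 CPM in WT libraries. In T-like cells it stood at 74.9 and 76.2 CPM in D3TA libraries, against 7.56 and 10.4 CPM in WT libraries. In plasma-like cells it stood at 100.4 and 98.5 CPM in D3TA libraries, against 10.7 and 21.8 CPM in WT libraries. The D3TA replicates nearly coincided in these 3 classes, with no overlap between genotypes.

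Monocyte-like and macrophage-like cells also had more Fos in both D3TA libraries than in either WT library. Fos in monocyte-like cells stood at 267 and 262 CPM in D3TA libraries, against 47.2 and 85.7 CPM in WT libraries. Fos in macrophage-like cells stood at 109 and 165 CPM in D3TA libraries, against 6.68 and 22.7 CPM in WT libraries. Erythroid-like cells had the lowest Fos of the tested classes in D3TA, 13.2 and 12.5 CPM, against 2.14 and 0 CPM in WT.

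Mature neutrophil-like cells carried the most Fos in both genotypes, and there the groups overlapped. Fos stood at 933 and 1400 CPM in D3TA libraries, against 930.0 and 1517 CPM in WT libraries. Fosb stood at 11.9 and 38.3 CPM in D3TA libraries, against 11.6 and 39.7 CPM in WT libraries. Jun stood at 151 and 175 CPM in D3TA libraries, against 113 and 224 CPM in WT libraries. In each of the 3 genes the replicate 1 library was the lower one in both genotypes, and the spread between mice of 1 genotype exceeded the difference between genotypes. The log2 fold changes in this class were 0.31 ± 0.35 for Fos, 0.40 ± 0.67 for Fosb and 0.37 ± 0.32 for Jun (SE) with TMM scaling, and -0.07, 0.04 and -0.03 with no scaling factors, where the median of all genes in the class was -0.42. With TMM but without WT replicate 1 they were -0.00251, -0.39 and -0.07. Junb was also highest in this class, at 1669 and 2293 CPM in D3TA libraries, against 1380.1 and 2177 CPM in WT libraries.

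Fosb and Jun had another order of classes. Fosb in D3TA was as high or higher in plasma-like (54.8 and 89.0 CPM), T-like (45.5 and 38.4 CPM) and monocyte-like cells (56.7 and 47.7 CPM) as in D3TA mature neutrophil-like cells. In WT those classes held 2.31 and 10.6 CPM, 2.63 and 3.97 CPM, and 3.63 and 9.23 CPM. Jun in B-like cells stood at 225 and 64.6 CPM in D3TA libraries, against 13.4 and 26.8 CPM in WT libraries. D3TA replicate 1 stood far above D3TA replicate 2 in that class, while both exceeded both WT libraries.

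Atf3 in B-like cells came from 1 mouse. It stood at 12.5 and 0.592 CPM in D3TA libraries, against 0.269 and 0.315 CPM in WT libraries, so its log2 fold change of 4.57 ± 1.61 SE, the largest of the 9 genes in any class, rests on D3TA replicate 1. Without that library it was 0.96 for Atf3 in B-like cells, and that of Jun was 1.63, against 2.93 with it. The B-like cells of D3TA replicate 1 also stood apart in quality: their median mitochondrial share was 5.74%, against 4.30% in D3TA replicate 2 and 3.92% and 4.16% in WT libraries, and monocyte markers summed to 1931 CPM, against 989.7 and 989.2 CPM in WT libraries. A stricter cell filter (at least 1000 UMIs and 500 genes, at most 5% mitochondrial UMIs) left 523 B-like cells in this library, against 1688, and gave log2 fold changes of 4.36 for Atf3 and 2.78 for Jun. The part of cell quality in these values was not tested. The same mouse alone was high in plasma-like cells, where Atf3 stood at 6.05 and 0.289 CPM in D3TA libraries, against 0.210 and 0.424 CPM in WT libraries.

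Egr1 separated the genotypes in mature neutrophil-like cells too, at 161 and 284 CPM in D3TA libraries, against 38.9 and 157 CPM in WT libraries, with WT replicate 2 just under the lower D3TA library. In erythroid-like cells Egr1 stood at 3.87 and 4.49 CPM in D3TA libraries, against 2.14 and 7.75 CPM in WT libraries, which overlap. Ier2 in mature neutrophil-like cells stood at 427 and 476 CPM in D3TA libraries, against 214 and 349 CPM in WT libraries. In T-like cells Ier2 stood at 62.2 and 55.6 CPM in D3TA libraries, against 50.4 and 49.7 CPM in WT libraries, a much smaller gap. Jund in monocyte-like cells ran the other way, at 143 and 149 CPM in D3TA libraries, against 215 and 206 CPM in WT libraries.

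**Figure D2:**
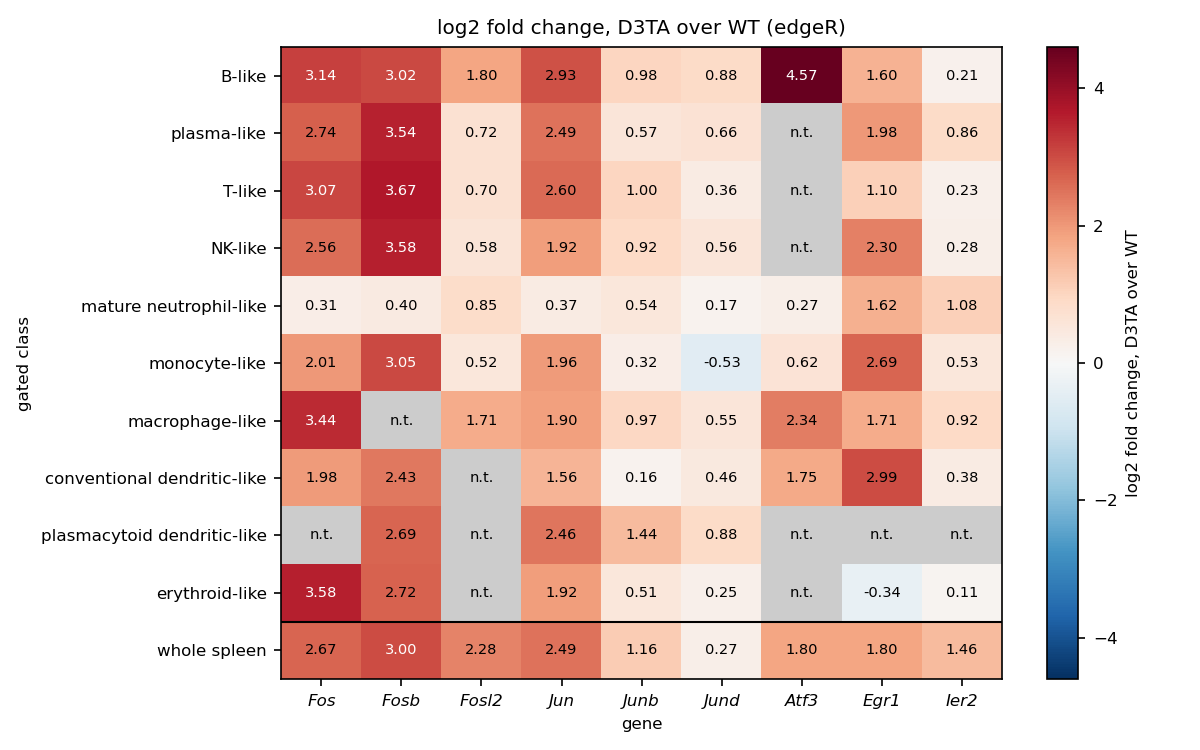
Log2 fold change of D3TA over WT from edgeR for each gene (horizontal axis) in each class and in whole spleen (vertical axis), with n.t. where a gene did not pass the filter on low counts. The mature neutrophil-like row holds 0.31 for Fos, 0.40 for Fosb and 0.37 for Jun with TMM scaling (-0.07, 0.04 and -0.03 without), while the T-like row holds 3.07, 3.67 and 2.60.

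Of the 90 pairs of a gene and a class, 78 passed the filter on low counts, of which 76 had a positive log2 fold change, and the 2 negative ones were Jund in monocyte-like cells (-0.53) and Egr1 in erythroid-like cells (-0.34). A gene could pass through its level in D3TA alone, so these counts are no support for a rise. With no scaling factors 6 of the 78 were negative, 4 of them in mature neutrophil-like cells (Fos, Jun, Jund and Atf3). Jun, Junb and Jund were tested in 10 classes, Fos, Fosb, Egr1 and Ier2 in 9, Fosl2 in 7 and Atf3 in 5. In GENCODE vM21 (GRCm38), whose identifiers matched the files for all 9, Fos lies on chromosome 12 from 85473890 to 85477273 (plus strand), Fosb on chromosome 7 from 19302696 to 19310051 and Jun on chromosome 4 from 95049034 to 95052222 (both minus strand). Junb, Jund and Ier2 lie on chromosome 8, Fosl2 on chromosome 5, Atf3 on chromosome 1 and Egr1 on chromosome 18.

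Calls within classes came from the same contrast as the choice of genes, and are given beside those of all genes tested. By edgeR's quasi-likelihood test with Benjamini-Hochberg adjustment, 7 pairs were called higher: Fos, Fosb, Jun and Egr1 in monocyte-like cells (6.9% of all genes called higher), Fos and Fosb in NK-like cells (0.065%) and Fos in macrophage-like cells (0.379%). No gene of the 9 was called in the other 7 classes, where the share of all genes called higher was 0% in B-like, 0.00855% in plasma-like, 0.00734% in T-like, 2.6% in mature neutrophil-like, 0.0575% in conventional dendritic-like, 0.118% in plasmacytoid dendritic-like and 0.045% in erythroid-like cells. Over the 10 classes 48 pairs had an unadjusted edgeR p under 0.05, and DESeq2 called 28, with at least 1 in every class. Among all genes, an unadjusted edgeR p under 0.05 was found for 842 of 14701 in B-like, 804 of 13632 in T-like and 2375 of 9448 in monocyte-like cells. In mature neutrophil-like cells it was found for 3 of the 9 genes, beside 1905 of all 8035 genes, and DESeq2 called only Ier2. The share of all genes called by DESeq2 was not computed per class, so nothing is read from its 28 calls.

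Both D3TA libraries lay above both WT libraries, after scaling, for 8 of 9 genes tested in B-like (18% of all genes), 7 of 8 in plasma-like (18.9%), 8 of 8 in T-like (17.5%) and 7 of 8 in NK-like cells (17.6%). The count was 7 of 9 in monocyte-like (28%), 7 of 8 in macrophage-like (15.8%), 7 of 8 in conventional dendritic-like (17.8%) and 4 of 4 in plasmacytoid dendritic-like cells (13.9%). It was 5 of 9 in mature neutrophil-like (27.2%) and 3 of 7 in erythroid-like cells (15.6%). The median log2 fold change of the genes tested was 1.80 in B-like, 1.42 in plasma-like, 1.05 in T-like and 1.42 in NK-like cells. It was 1.71 in macrophage-like, 1.65 in conventional dendritic-like and 1.95 in plasmacytoid dendritic-like cells. The lowest medians were 0.625 in monocyte-like, 0.509 in erythroid-like and 0.403 in mature neutrophil-like cells. The medians over all genes lay between -0.012 and 0.025.

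Whether the D3TA difference was the same in all 10 classes was tested with edgeR's quasi-likelihood F-test of the genotype by class interaction, with the library as a block. The interaction was not used to choose the genes. It was called for Fos, whose log2 fold change spanned 3.18 between classes (adjusted p = 0.0251), and narrowly for Jun, which spanned 2.25 (adjusted p = 0.0499), among 3.61% of the 14138 genes tested. The span of Fos is poorly fixed at its upper end, erythroid-like cells, where WT libraries held 6 and 0 Fos UMIs. It was 10.64 without WT replicate 1, 9.75 with a stricter gate (a larger lead over the next class), 4.78 with all barcodes and 3.69 with no scaling factors. The lowest class was mature neutrophil-like for both genes, and for Fosb, which was not called (adjusted p = 0.172). The remaining adjusted p-values of edgeR's F-test were 0.185 for Ier2, 0.26 for Egr1, 0.269 for Jund, 0.285 for Fosl2, 0.394 for Atf3 and 0.596 for Junb. For those 7 genes the F-test over all classes detected no difference, which does not show that the classes respond alike. Fosb, Ier2 and Jund each had a single class called against the mean of the others, as given below. Without WT replicate 1 neither Fos (adjusted p = 0.122) nor Jun (adjusted p = 0.715) was called in edgeR, without WT replicate 2 the values were 0.101 and 0.474, without D3TA replicate 1 they were 0.228 and 0.143, and without D3TA replicate 2 they were 0.0398 and 0.00113.

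Set against the mean of the other 9 classes, mature neutrophil-like cells had a smaller D3TA difference in Fos, Fosb and Jun, and a larger one in Ier2 that was not called without scaling factors. The contrast for Fos was -2.40 ± 0.39 on the log2 scale (SE, edgeR adjusted p = 0.00095). That for Fosb was -2.61 ± 0.60 (adjusted p = 0.0132, edgeR) and that for Jun was -1.60 ± 0.33 (adjusted p = 0.0049, edgeR). That for Ier2 was 0.78 ± 0.22 (adjusted p = 0.0375, edgeR), called in 5 of 13 alternative fits. With no scaling factors it was 0.25 for Ier2 (edgeR adjusted p = 0.604), against -2.92 for Fos, -3.12 for Fosb and -2.11 for Jun, which stayed called. These 4 of 9 stand beside 6.99% of all genes called in the same contrast. The contrast for Fos was called in 13 of 13 alternative fits, between -4.09 and -2.20, with the highest adjusted p of 0.0288 in edgeR.

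The other 3 were less steady. The Ier2 call was also lost with all barcodes (edgeR adjusted p = 0.221), doublets kept (0.271), no filter on low counts (0.214) and no library block (0.092), that of Fosb with doublets kept (0.0506) and that of Jun with no library block (0.103). Without WT replicate 1 the contrast was -4.09 for Fos (edgeR adjusted p = 0.00809), -4.04 for Fosb (0.112), -1.83 for Jun (0.179) and 0.22 for Ier2 (1). Without WT replicate 2 the contrast was -2.02 for Fosb (edgeR adjusted p = 0.171), -1.56 for Jun (0.0644) and 1.15 for Ier2 (0.0108). Without D3TA replicate 1 it was -1.96 for Fosb (edgeR adjusted p = 0.113), -1.26 for Jun (0.0293) and 0.76 for Ier2 (0.231), and without D3TA replicate 2 it was -3.40 for Fosb (0.00932), -2.01 for Jun (0.00152) and 0.70 for Ier2 (0.222). The mature neutrophil-like gate also held cells of other maturity in the 2 genotypes: its 11 immature neutrophil markers summed to 9510 and 9968 CPM in D3TA libraries, against 911 and 840 CPM in WT libraries. Its 14 mature markers summed to 33110 and 29660 CPM in D3TA libraries, against 13890 and 19060 CPM in WT libraries. In the WT libraries the highest sum of another class's markers in this gate was that of B cells. It was 4030 and 1920 CPM, against 13100 and 13220 CPM in the B-like cells of the same libraries. The part of these shifts and of B cell RNA in the contrasts was not tested.

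Monocyte-like cells differed from the mean of the other classes in Jund alone of the 9, by -1.06 ± 0.27 (SE, edgeR adjusted p = 0.0218), beside 4.82% of all genes called in that contrast. The call was lost with no library block (-1.07, edgeR adjusted p = 0.0885). It was also lost among the classes with a marker ratio above 2 (-0.81, edgeR adjusted p = 0.0897), a choice made after seeing the data. The Jund contrast was -0.99 without WT replicate 1 (edgeR adjusted p = 0.379), -1.17 without WT replicate 2 (0.213), -0.95 without D3TA replicate 1 (0.0549) and -1.18 without D3TA replicate 2 (0.0157). Among the 9 genes no other contrast of a class against the rest was called.

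**Figure D3:**
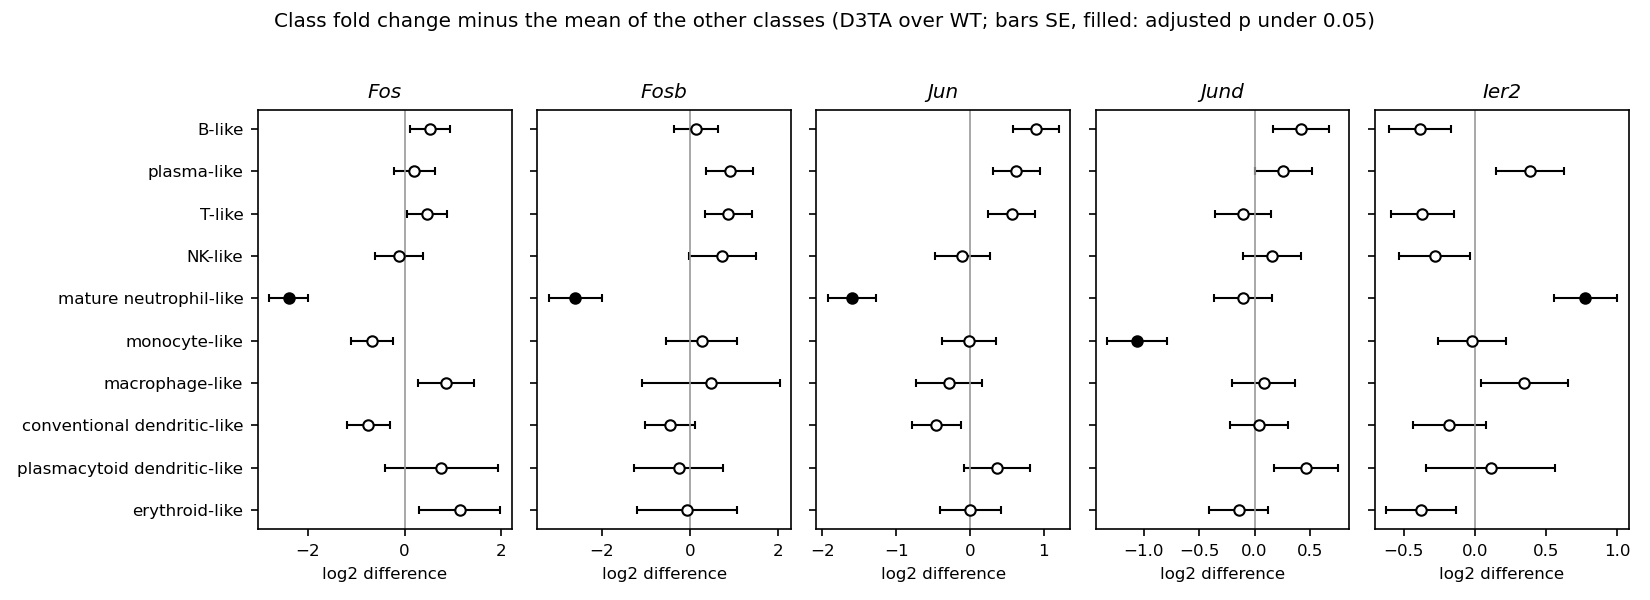
Log2 fold change (D3TA over WT) of each class minus the mean of the other 9 classes (horizontal axis), by class (vertical axis), with SE bars and filled points for an adjusted p under 0.05. The mature neutrophil-like points for Fos, Fosb and Jun lie at -2.40, -2.61 and -1.60, left of 0, and that for Ier2 at 0.78, right of it.

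The mix of cells also differed between the genotypes, and less RNA per cell and fewer cells of a type cannot be told apart in whole-spleen sums. Mature neutrophil-like cells held 3.08% of assigned and unassigned UMIs in D3TA libraries and 1.16% in WT libraries on average, and immature neutrophil-like cells 19.7% in D3TA and 0.324% in WT. With levels held at WT and the mix set to D3TA, whole-spleen Fos would be 2.59-fold the WT value, Fosl2 3.34-fold, Atf3 2.06-fold and Ier2 1.65-fold. The same change of mix gave 0.902-fold for Fosb, 0.988-fold for Egr1 and 1.23-fold for Jun. These mix-only folds rest partly on WT levels from few cells, 37 and 17 immature neutrophil-like and 40 and 2 neutrophil precursor-like cells. WT Fosb was 0 CPM in both of these groups of cells. WT Egr1 was 0 CPM in the precursors and 5.1 ± 7.21 CPM (SD) in the immature cells, so these folds are poorly fixed.

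With the mix held at WT and the levels set to D3TA, Fosb would be 8.38-fold, Jun 5.48-fold, Atf3 3.15-fold, Fos 3.09-fold and Egr1 2.72-fold the WT value. With the levels of a single D3TA mouse, replicate 1 or 2, Atf3 would be 4.84-fold or 1.46-fold, Jun 7.66-fold or 3.29-fold and Fosb 8.63-fold or 8.14-fold. Fosl2 would be 1.75-fold, Junb 1.59-fold, Jund 1.53-fold and Ier2 1.30-fold. The changes of mix and level together gave 5.91-fold for Fos, 7.75-fold for Fosb, 4.67-fold for Fosl2 and 5.40-fold for Jun. Fosb and Egr1 thus kept most of their whole-spleen fold at a fixed mix, Jun did so with the mean of both mice, and Fosl2 and Ier2 kept the smaller part. These are sums over 16 groups of cells, unassigned cells included, with no test.

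**Figure D4:**
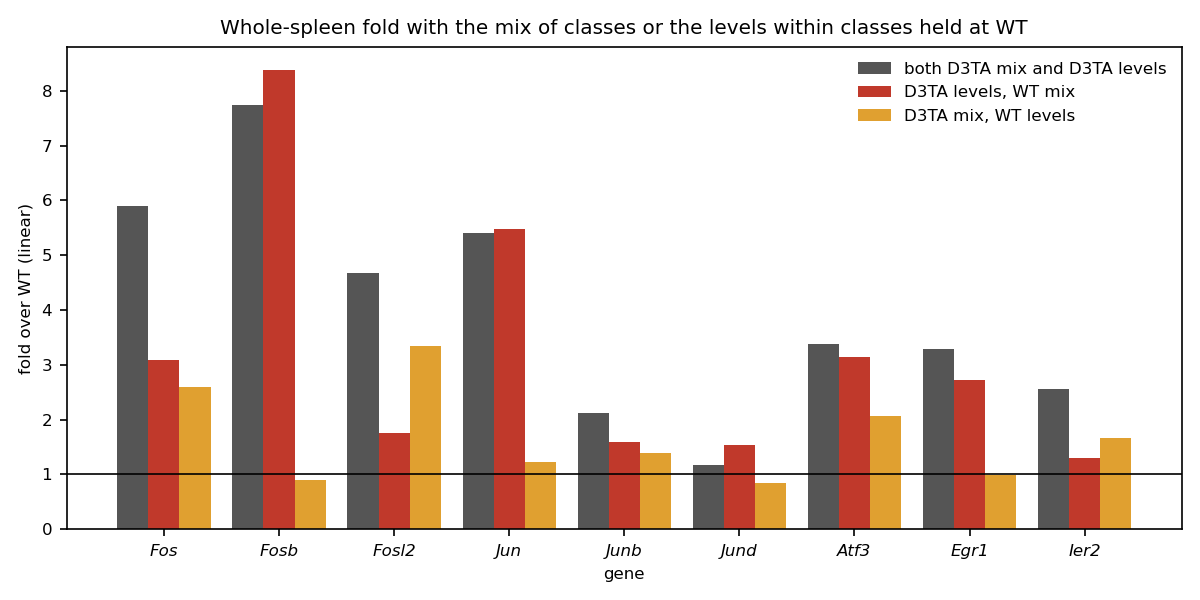
Fold over WT (vertical axis, linear, from 0) of the library means of each gene (horizontal axis) with both the D3TA mix and D3TA levels, with D3TA levels at the WT mix, and with the D3TA mix at WT levels. For Fosb the bars stand at 7.75, 8.38 and 0.902, and for Fosl2 at 4.67, 1.75 and 3.34.

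The sources of the transcripts moved accordingly. The shares here were reckoned per genotype from each class's mean share of UMIs and its level, so the spread between mice is not shown. Of Fos, mature neutrophil-like cells gave 27.3% in D3TA and 63.3% in WT, and immature neutrophil-like cells gave 32.9% in D3TA and 0.924% in WT. Of Fosb, by the same reckoning, T-like cells gave 22.1% in D3TA and 13.8% in WT, and B-like cells 18.4% in D3TA and 38.4% in WT. Mature neutrophil-like cells gave 2.81% in D3TA and 8.34% in WT. Immature neutrophil-like cells numbered 2493 and 1702 in D3TA libraries, against 37 and 17 in WT libraries, too few for a test. Their Fos stood at 190.1 and 251 CPM in D3TA libraries, against 15.6 and 95.2 CPM in WT libraries, several-fold below that of mature neutrophil-like cells.

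Shares of cells were compared after thinning each cell to 1000 UMIs. In T-like cells 7.26% (95% exact binomial interval 6.29% to 8.32%) and 7.5% (6.35% to 8.79%) had a Fos UMI in D3TA libraries, against 1.02% (0.615% to 1.59%) and 0.761% (0.348% to 1.44%) in WT libraries. These intervals cover counting error only. In mature neutrophil-like cells the shares were 58.5% and 71.9% in D3TA libraries, against 49.7% and 68.3% in WT libraries. In erythroid-like cells, the class with the least Fos, they were 1.04% and 3.90% in D3TA libraries, against 0.270% and 0 of 131 cells in WT libraries. A count of 0 allows a share of up to 2.29% by the limit of 3 counts, and 2.78% is the upper end of the exact interval.

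A Fosb UMI was found in 4.56% and 3.75% of T-like cells in D3TA libraries, against 0.215% and 0.0845% in WT libraries. In erythroid-like cells the Fosb shares were 0.519% (2 of 385 cells) and 0.488% (1 of 205) in D3TA libraries, against 0 of 370 and 0 of 131 cells in WT libraries. The exact intervals of the WT counts of 0 reach 0.992% and 2.78%, above both D3TA shares, so these counts do not separate the genotypes. Thinning left out 5 and 7 T-like cells in D3TA libraries, against 490 and 3 in WT libraries, and 41 and 32 mature neutrophil-like cells in D3TA, against 208 and 11 in WT. Without thinning, a Fos UMI was found in 30.4% and 35.4% of T-like cells in D3TA libraries, against 3.02% and 7.08% in WT libraries. In D3TA T-like cells with a Fos UMI after thinning, 19.9% and 7.86% also had a Jun UMI, against 12.4% and 7.13% of those without one. The order was not the same in other D3TA classes. In B-like cells these shares were 14.1% and 7.55%, against 19.3% and 6.47% without Fos. In plasma-like cells they were 17.4% and 3.45%, against 14.3% and 11.9%. In WT T-like cells only 19 and 9 cells had a Fos UMI after thinning, too few for such shares.

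**Figure D5:**
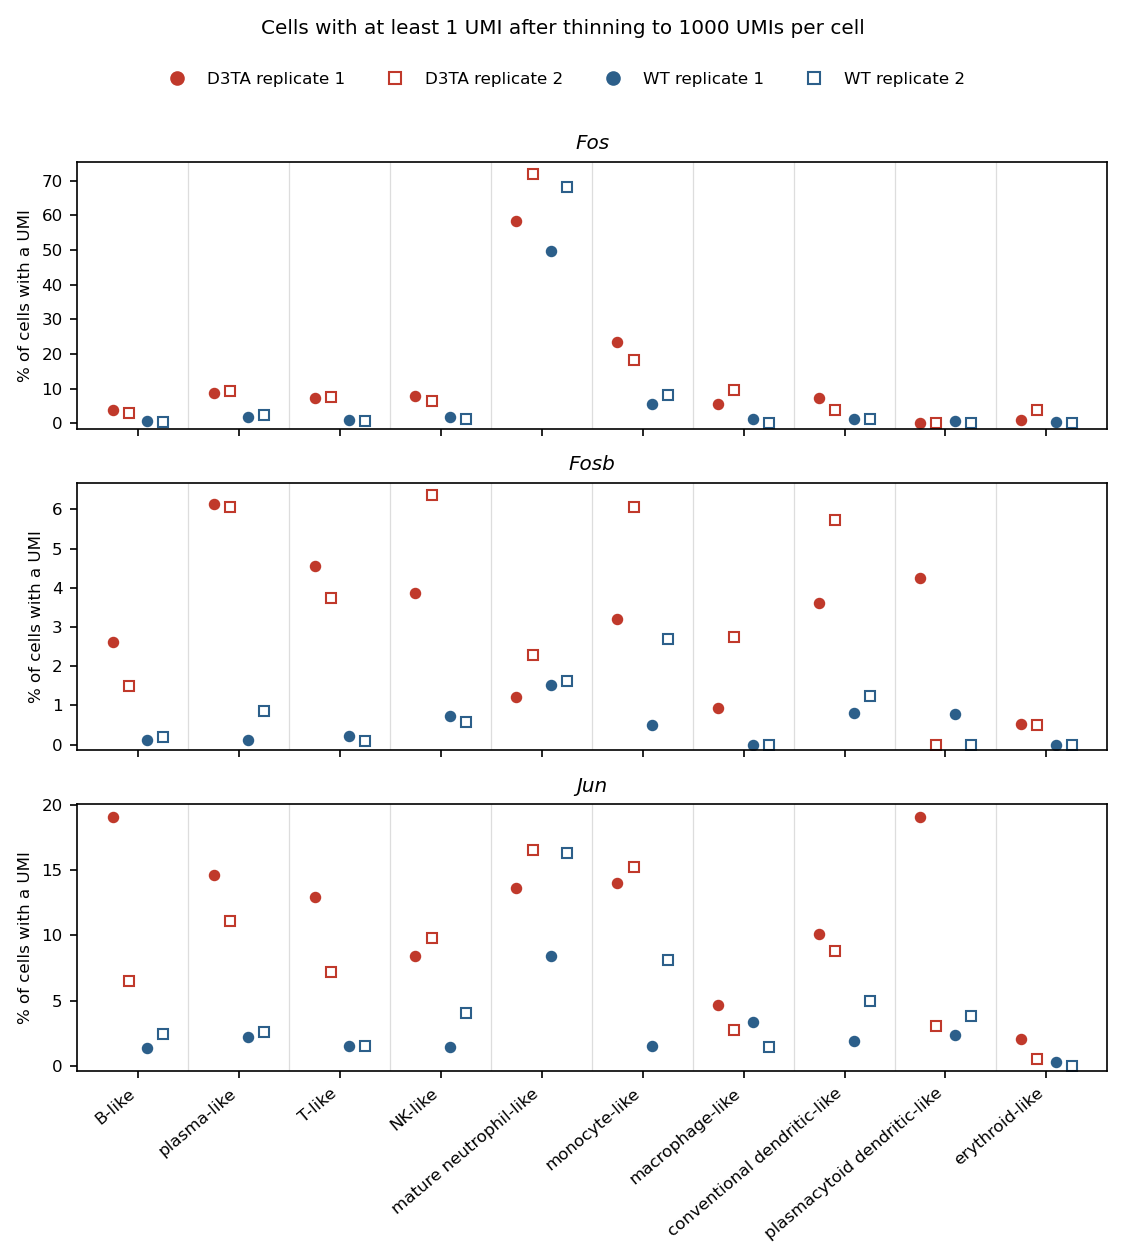
Percent of cells with at least 1 UMI of Fos, Fosb or Jun (vertical axes, linear) after thinning to 1000 UMIs per cell, by class (horizontal axis), 1 point per library with D3TA left of WT. The T-like Fos points lie at 7.26% and 7.5% in D3TA and at 1.02% and 0.761% in WT, while mature neutrophil-like cells lie near 50% or above in all 4 libraries.

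Immature neutrophil markers were also higher in the other compared classes of both D3TA libraries than in WT libraries. The mature neutrophil markers overlapped between genotypes in 2 of these classes. In NK-like cells they summed to 329.5 and 187.9 CPM in D3TA libraries, against 216.7 and 173.3 CPM in WT libraries. In conventional dendritic-like cells they summed to 535.3 and 167.2 CPM in D3TA, against 223.9 and 156.3 CPM in WT. In T-like cells the 11 immature neutrophil markers summed to 981 and 751 CPM in D3TA libraries, against 37.3 and 18.3 CPM in WT libraries, and the 14 mature markers to 358 and 146 CPM in D3TA, against 86.5 and 110.0 CPM in WT. If all of these marker UMIs came from neutrophils with the Fos level measured in the same library, they would bring 11.9 and 8.89 CPM of Fos into D3TA T-like cells, which held 74.9 and 76.2 CPM. In WT T-like cells the same reckoning gave 5.8 and 8.77 CPM of Fos, most of the 7.56 and 10.4 CPM measured there. For Fosb they would bring 0.275 and 0.326 CPM into D3TA T-like cells, where 45.5 and 38.4 CPM were measured, and for Jun 2.93 and 2.26 CPM, where 136 and 79.0 CPM were measured. Over the 9 other classes this reckoning gave 8.46% to 61.2% of the Fos measured in D3TA libraries, with the highest value in erythroid-like cells, 0.38% to 19.7% of the Fosb and 0.591% to 34.1% of the Jun. In D3TA plasma-like cells it reached 170% for Fosl2 and 143% for Atf3, above what was measured. In WT libraries it reached 308% for Atf3, 169% for Fos and 113% for Fosl2. In WT replicate 2 it gave 1.51 CPM of Fos in erythroid-like and 1.19 CPM in plasmacytoid dendritic-like cells, where 0 was measured. Whether the UMIs came from neutrophils was not tested.

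Among genes of the same pathways, from lists chosen with earlier results of these data known, a minority was called in whole spleen by edgeR, all of them higher in D3TA. The share of all genes called higher there was 5.7%. Of 13 other bZIP genes of the AP-1 superfamily 2 were called: Jdp2, a dimer partner of Jun that represses, with 32.5 and 25.1 CPM in D3TA libraries, against 5.37 and 6.83 CPM in WT libraries, and Mafg, a small Maf protein, with 55.1 and 45.2 CPM in D3TA, against 17.8 and 17.5 CPM in WT. The list's median log2 fold change was 0.35. Of 17 other immediate early genes tested 5 were called, led by Ier3 with 28.4 and 13.1 CPM in D3TA, against 3.50 and 2.52 CPM in WT, and by Rhob, a small GTPase, with 55.1 and 57.7 CPM in D3TA, against 9.34 and 10.2 CPM in WT. That list's median was 0.32.

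Of 20 feedback regulators that are induced along with AP-1, 4 were called, led by Trib1, a pseudokinase (25.1 and 21.1 CPM in D3TA, against 6.18 and 7.96 CPM in WT), and Gadd45a, a stress sensor (41.5 and 33.5 CPM in D3TA, against 12.8 and 11.3 CPM in WT), with a median of 0.50. Of 16 upstream kinases and factors only Mapk3, which encodes the kinase ERK1, was called, at 57.9 and 54.5 CPM in D3TA libraries, against 16.5 and 17.1 CPM in WT libraries, with a median of 0.01. The median over all genes was -0.003. Of 13 heat shock genes 2 were called, Hspa1a with 31.3 and 35.0 CPM in D3TA, against 3.38 and 4.80 CPM in WT, and Hspa1b with 59.5 and 101 CPM in D3TA, against 8.58 and 11.9 CPM in WT. Within mature neutrophil-like cells edgeR called 2.6% of all genes higher and 2.74% lower. Called higher there were 1 of 8 tested bZIP genes, 2 of 18 feedback regulators and 1 of 15 upstream genes. None of the listed genes was called lower, and 0 of 9 immediate early and 0 of 9 heat shock genes were called higher. Within monocyte-like cells edgeR called 6.9% of all genes higher and 4.96% lower. Called lower there were 1 of 10 bZIP genes, 1 of 10 immediate early genes and 2 of 17 feedback regulators. Called higher were 2 of 10 immediate early genes and 1 of 12 heat shock genes, while 0 of 15 upstream genes were called. The medians in monocyte-like cells were -0.10 for bZIP, -0.05 for immediate early, -0.12 for feedback, -0.22 for upstream and 0.27 for heat shock genes.

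Over the 40 sums of a class in a library, the genes whose log2 CPM most resembled the mean of the 9 were Mmp8, a neutrophil collagenase (Pearson r = 0.889), Zfp36, which destabilizes cytokine mRNA (0.888), N4bp1 (0.878), Rhob (0.874) and Pglyrp1, a neutrophil granule protein that binds peptidoglycan (0.871). These were the highest of 7048 genes ranked, and the sums of 1 library share a mouse and a depth, so the values describe likeness across these sums. Mmp8 and Pglyrp1 are also among the markers that define the neutrophil classes.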

How the data were processed

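Droplet single-cell RNA libraries of 4 spleens (2 D3TA, 2 WT, grouped by title) were analysed from the deposited UMI counts per gene and barcode, which Cell Ranger 7.0.1 made, per the file headers, on mm10, per the submitters' processing notes. The counts were not normalized by the authors. Barcodes with at least 500 UMIs, 250 genes and at most 10% mitochondrial UMIs were kept, and Scrublet doublets were removed in each library. For WT replicate 1, where Scrublet's own threshold marked 0 cells, the average of the thresholds found elsewhere (0.2355) served instead, which was decided after seeing the data. A cell took the class whose markers had the highest mean z-score of log-normalized counts, with at least 2 markers detected and a lead of 0.2. Sums over the cells of a class in a library entered edgeR 4.0.16 (quasi-likelihood F-test after filterByExpr and TMM scaling, Benjamini-Hochberg over all genes tested, threshold 0.05), with DESeq2 1.42.0 as an alternative. The code of the fits was run on simulated counts with known changes, drawn independently for each sum at a fixed dispersion. A shift shared by the classes of a mouse was not simulated, so that run does not vouch for the calls given here. CPM are UMIs scaled to an equal total per library or class, without scaling factors, and levels of different genes are not compared per length. The SE of a fold change is its size divided by the root of F, and that of an interaction contrast comes from the fitted model. The ages of single mice are not given in the labels. Standardized folds weight the class levels by each class's share of UMIs.

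The 9 genes, the pathway lists, the markers and the tests were chosen with earlier results of these data known. All 9 genes were to be named, and of each pathway list the 2 called genes with the largest positive and the 2 with the largest negative whole-spleen fold change. Whether replicate numbers pair mice was checked from the correlation of deviations from the group means. It was -0.083 for whole spleen and between -0.278 and 0.15 in the classes. No pairing was seen, but with 2 libraries per group this check cannot exclude it.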

Additional observations from a re-analysis of the deposited data

Results flagged for a closer look

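The D3TA difference varied among the 10 classes in 2 of the 9 genes by edgeR's interaction F-test. The log2 fold change of Fos spanned 3.18 between its highest class, erythroid-like cells, and its lowest, mature neutrophil-like cells. That span was 10.64 without WT replicate 1 and 9.75 with the stricter gate, and the erythroid-like end rests on 6 and 0 Fos UMIs in WT libraries. That of Jun spanned 2.25 between B-like and mature neutrophil-like cells.

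Single classes also differed from the mean of the others. In mature neutrophil-like cells the difference was -2.40 for Fos, -2.61 for Fosb, -1.60 for Jun and 0.78 for Ier2 on the log2 scale. With no scaling factors that of Ier2 was 0.25 and was not called. In monocyte-like cells it was -1.06 for Jund.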

How the results depend on the processing

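The whole-spleen call count of 1116 genes stayed within 1.5 times under all barcodes, a stricter cell filter, doublets kept, median-ratio size factors, no filter on low counts and the replicate block (1083). It was 2446 with DESeq2, 1908 with a crossed replicate block added after seeing the data, and 239 to 5534 with a library left out. The 7 calls within classes became 33 with no filter on low counts, 28 with DESeq2, 21 with the replicate block, 17 with the crossed block, 11 with no scaling factors (added after seeing the data) and 10 to 25 with a library left out. The share of whole-spleen calls that were higher in D3TA was 93.7%, 93.3% with median-ratio size factors and 75.8% with DESeq2.

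The 2 genes called by the interaction became 1 with median-ratio size factors (Fos), 6 with no filter on low counts, 0 without the library block, 1 in the classes of purer markers (Fos, a choice made after seeing the data) and 0 to 5 with a library left out. Over all genes the 510 interaction calls became 314 with all barcodes, 246 with doublets kept, 2843 with no filter on low counts, 24 without the library block, 1051 with no scaling factors and 16 to 1091 with a library left out. The cause was not tested. No called value changed sign. Whether the replicate numbers pair mice was not established, and the block is not read as a weaker or stronger effect. A fit with 1 library in a group assumes that it varies like the other group. Depth limits the small classes, with 27 plasmacytoid dendritic-like and 76 monocyte-like cells in the smallest library.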
